A study of Mus musculus with 2 samples.

Results

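Integrins are surface receptors that cells use to hold on to other cells and to matrix, and each receptor is a pair of an alpha and a beta subunit. The 10 integrin subunit genes described here were Itgam, Itgax, Itgal, Itgae, Itga4, Itgav, Itgb1, Itgb2, Itgb5 and Itgb7, of 31053 measured features. They were chosen by name, and each symbol was found once in the feature lists of both libraries. Leukocytes are known for the beta 2 family, in which Itgb2 (CD18) pairs with Itgam (CD11b, making Mac-1), Itgax (CD11c) or Itgal (CD11a, making LFA-1). In the gut, Itga4 with Itgb7 binds the mucosal address protein MAdCAM-1, and Itgae (CD103) with Itgb7 binds E-cadherin of epithelial cells. Itgav pairs with Itgb5 among others, and Itgb1 pairs with many alpha subunits, Itga4 included. Talin and kindlin, which bind the tail of the beta subunit, switch integrins on.

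The cells were isolated from the mouse colon lamina propria, enriched on Percoll, sorted with removal of dead cells, and labelled cd11b+ in both groups. The data hold 1 library from WT mice and 1 from LncRNA17Rik knockout (KO) mice, which lack a non-coding transcript named lncLy6c in the study. Per the study, the deletion was made with CRISPR-Cas9 in zygotes on the C57BL/6J background. It is read here as a deletion that is not limited to 1 cell type. Each sample was a pool of young adult males, and no animal can be followed on its own. With n = 1 library per genotype there was no replicate error and no test between genotypes, and every difference below is one between these libraries. Intervals below are 95% and exact, and where a count was 0 the limit given is 3 counts of the total; both cover counting error only. The transcript named in the KO label was not matched to a feature here, so the genotype labels rest on no expression check. Levels are given as CPM, the unique molecular identifiers (UMIs) of a gene per 1000000 UMIs of the same cells, and are compared between classes or libraries of 1 gene, not between genes.

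The WT library gave 2597 cells with a median of 5073 UMIs and the KO library 2514 cells with a median of 6564.5 UMIs. No cell barcode was shared between the filtered libraries. Clusters were named from marker lists that hold no integrin, and the 10 genes took no part in the clustering. The WT library had 621 cells in 1 cluster with equal shares of resident macrophage and inflammatory monocyte markers raised, called intermediate here, and the KO library had 40. Resident macrophages numbered 185 WT and 277 KO cells, inflammatory monocytes 79 and 325, type 1 conventional dendritic cells (cDC1) 120 and 297, and type 2 (cDC2) 240 and 499. Eosinophils numbered 197 and 409 cells, neutrophils 83 and 277, B cells 200 and 85, and T cells 170 and 63. The eosinophil cluster had equal numbers of eosinophil and neutrophil markers raised, 3 of 8 each, and was named by its top genes. Its median depth was only 753 UMIs in WT and 971 in KO.

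In the GRCm38 annotation (GENCODE M21), the 3 alpha subunits of the beta 2 family among these genes lay on chromosome 7. Itgam (ENSMUSG00000030786) spanned chr7:128062640-128118491 on the plus strand, Itgax (ENSMUSG00000030789) chr7:128129547-128150657 and Itgal (ENSMUSG00000030830) chr7:127296260-127335138. Itgb2 (ENSMUSG00000000290) lay at chr10:77530252-77565708, Itgae (ENSMUSG00000005947) at chr11:73090583-73147446 and Itgb7 (ENSMUSG00000001281) at chr15:102215995-102231944 on the minus strand. The annotation holds a second gene on the same strand, Gm49368, whose exons cover 3450 of the 5024 exonic bases of Itgam (68.7%), while the last 1186 bases at the 3′ end belong to Itgam alone. Gm49368 itself received 133 WT and 256 KO UMIs. Reads in the shared exons cannot be given to 1 of these genes, and the share of Itgam reads lost this way was not measured. Itgae, Itga4 and Itgav overlap genes on the other strand.

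Mouse promoters from RefSeq (GRCm38.p6, 250 bases before to 50 after the start) were at hand for 7 of the 10 genes. They were searched on both strands for GAGGAA, a core bound by the myeloid factor PU.1, and for the RUNX spellings TGTGGT and TGCGGT, since RUNX3 is the factor the study follows. GAGGAA was found in Itgam, Itgav, Itgb1 and Itgb7, against 31.3% of 27025 genes with a promoter in the table. TGTGGT was found in Itgax and Itga4, against 18.9% of genes, and TGCGGT in none of the 7, against 7.34%. Itgam held 3 matches. These matches are shown because Itgam is the gene of the sort label and Itgax and Itga4 are the members with a RUNX spelling. The capitals mark the match, which reads TTCCTC where the motif lies on the other strand and ACCACA for TGTGGT:
Itgam, chr7:128062544-128062573, plus strand: tgttttctcccgGAGGAAggctacagaggg
Itgam, chr7:128062613-128062642, plus strand: tctcatagctttTTCCTCatacttctctgt
Itgam, chr7:128062660-128062689, plus strand: ggccttggtggcTTCCTCaaagtgtctgtg
Itgax, chr7:128129551-128129580, plus strand: atttgcttcttcTGTGGTgacttggcagct
Itga4, chr2:79255354-79255383, plus strand: gtgagccactgcACCACAcccaggacccca
A match is a description of the letters and shows no binding.

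The first question was how far Itgam transcripts followed the cd11b+ label. Over all cells Itgam was at 129.6 CPM in WT (124.5 to 134.8) and 188.7 in KO (183.0 to 194.5). A UMI of Itgam was seen in 40.0% of WT cells (38.1% to 41.9%) and 57.8% of KO cells (55.8% to 59.7%). Thinning every cell to 2000 UMIs dropped 631 WT and 567 KO cells that were too shallow and gave 21.9% and 30.3%. Cells of the B, plasma, T and epithelial classes, which are not defined by CD11b, made up 749 WT cells (28.8%, 27.1% to 30.6%) and 170 KO cells (6.76%, 5.81% to 7.81%). Among these, 17.1% of WT and 4.12% of KO cells had an Itgam UMI, at a median depth of 6431 and 4912 UMIs, and Itgam was at 30.5 and 20.3 CPM. After thinning the shares were 6.28% and 3.68%. In the joined resident, intermediate and monocyte classes it gave 269.6 CPM in WT and 286.3 in KO, and 61.0% and 75.2% of cells had a UMI at median depths of 5332 and 9065.5. A class at or below the level of these joined non-myeloid cells is read here as background, and the part of free RNA in their own values was not tested. The level averages over its classes, with WT B cells (40.2 CPM) and T cells (35.6) above it and WT epithelial cells (4.37) below. It therefore sets no background for these classes themselves. Plasma cells supplied 6.95% of all WT Itgam UMIs. A transcript that is absent from a cell does not show that the protein is absent from its surface.

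By class, Itgam was highest in eosinophils among the 9 classes that had 30 cells or more in both libraries, at 696 CPM in WT (582 to 827) and 749 in KO (672 to 832). The intervals of the eosinophils lay above those of every other class in both libraries. Neutrophils (334 and 325 CPM), inflammatory monocytes (291 and 338), resident macrophages (281 and 239.5) and intermediate cells (263 and 224) followed, and no neighbouring pair among these was apart in both libraries. cDC2 held 169 CPM in WT and 183 in KO, and cDC1 held 99.4 and 84.0, each apart from the class that followed among these 9. T cells gave 35.6 and 22.8 CPM and B cells 40.2 and 2.54, from 40 and 9 UMIs and from 32 and 1 UMIs. NK cells, a lymphoid class known to carry CD11b, gave 146 CPM in 26 WT cells and 261 CPM in 41 KO cells. Epithelial cells of WT gave 4.37 CPM, and mature DC gave 0 of 160006 UMIs in 19 WT cells and 22.4 CPM in 40 KO cells. Of all Itgam UMIs, intermediate cells supplied 36.6% in WT and cDC2 17.3%, while in KO cDC2 supplied 32.6% and inflammatory monocytes 22.2%. These shares depend on cell number and depth as well as on level.

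**Figure D1:**
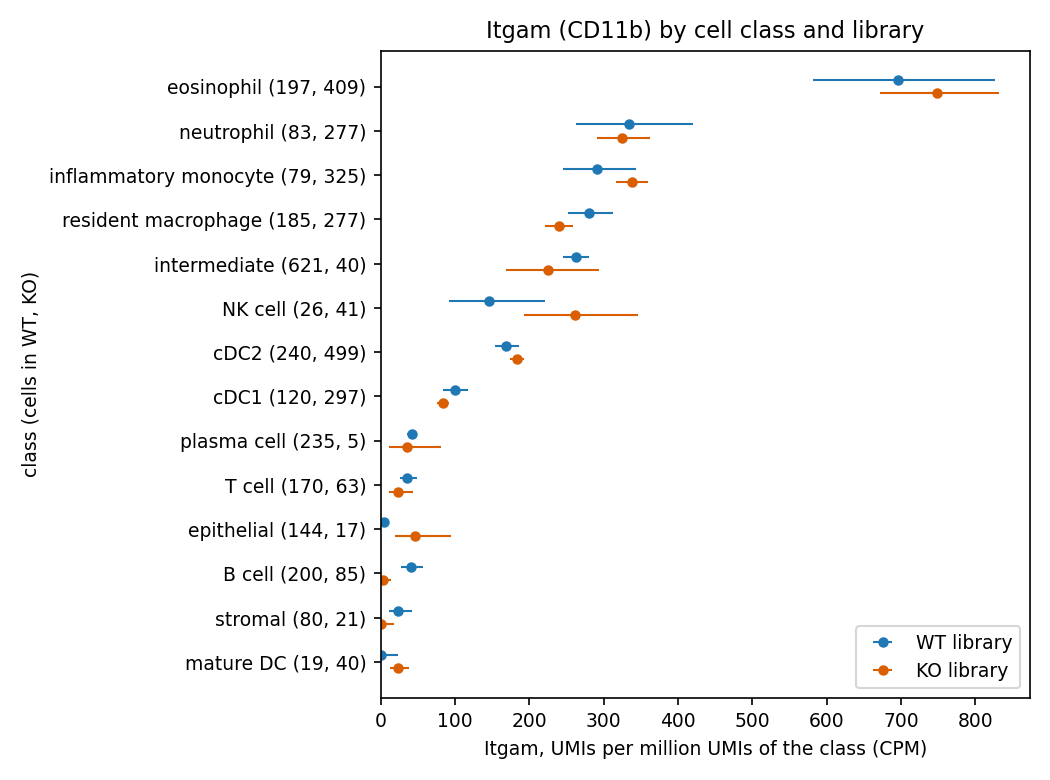
Itgam level in each class (horizontal axis, CPM) for the WT library (blue) and the KO library (orange); points are levels, bars are exact 95% counting intervals, and the numbers beside each class are its WT and KO cells. Eosinophils sit at 696 and 749 CPM, above every other class, and the WT epithelial cells sit at 4.37 CPM.

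Detection at equal depth gave a similar picture. In thinned cells 46.3% of WT and 45.6% of KO neutrophils had an Itgam UMI, 42.7% and 46.5% of inflammatory monocytes, and 39.6% and 35.1% of resident macrophages. The shares were 24.2% and 28.1% in cDC2, 20.4% and 17.6% in cDC1, 7.19% and 4.84% in T cells, and 5.88% and 1.19% in B cells. Without thinning, 64.2% of WT and 75.6% of KO cDC2 had a UMI, at median depths of 10069 and 14527. Eosinophils were too shallow for this comparison, since only 7 WT and 26 KO cells reached 2000 UMIs. Thinned to 1000 UMIs, Itgam was seen in 22 of 55 WT and 99 of 199 KO eosinophils. At that depth 28 of 79 WT and 67 of 267 KO neutrophils had an Itgam UMI.

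**Figure D2:**
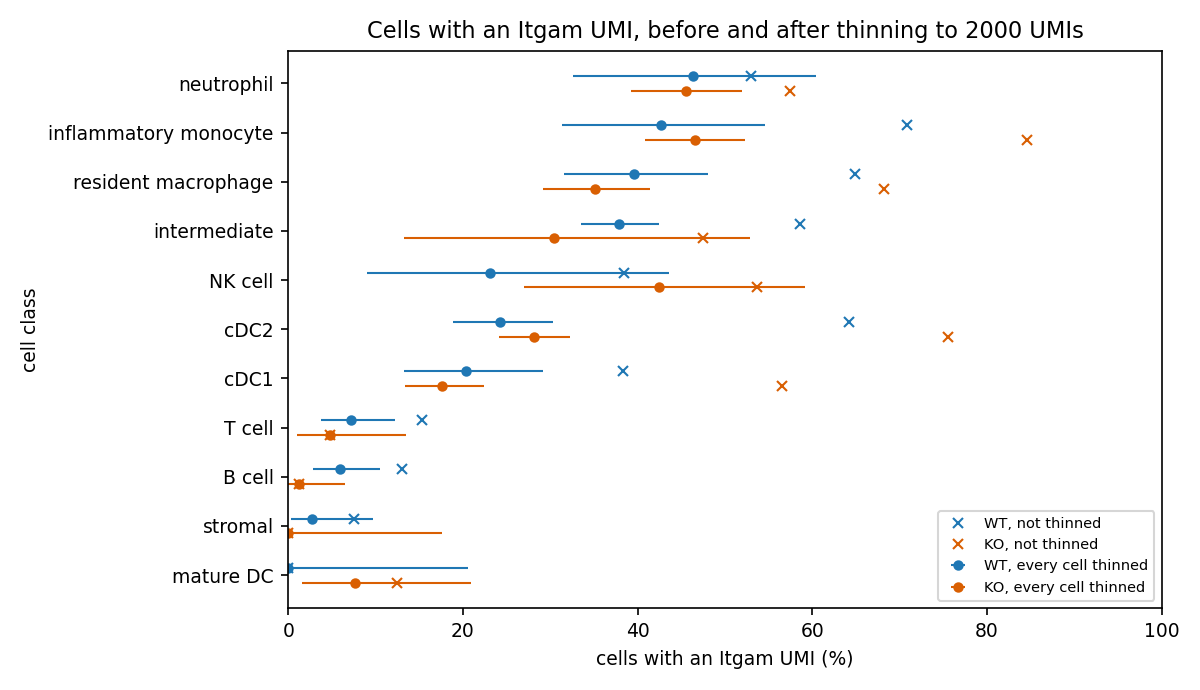
Share of cells with an Itgam UMI (horizontal axis, percent) by class, for WT (blue) and KO (orange); circles are cells thinned to 2000 UMIs with exact 95% intervals, and crosses are the same classes without thinning. Classes with fewer than 15 thinned cells in either library are not drawn; thinned neutrophils reach 46.3% and 45.6%, and T and B cells stay at or under 7.19%.

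Itgb2, the beta partner of Itgam, was found in the same myeloid classes. It reached 281 CPM in WT and 536 in KO inflammatory monocytes, 261 and 543 in neutrophils, and 289 and 433 in eosinophils. Resident macrophages gave 179 and 269 CPM, cDC1 187 and 246, cDC2 181 and 235, T cells 147 and 129, and B cells 55.2 and 55.8. B cells lay apart below T cells in both libraries. Itgax, the dendritic cell and macrophage alpha subunit, was highest in cDC2 (338 CPM in WT and 258 in KO). Its intervals lay apart from those of resident macrophages in both libraries, but in KO the 40 intermediate cells came next (212 CPM, 157 to 279) and their interval covered that of cDC2. Resident macrophages gave 269 and 207 CPM of Itgax, cDC1 249 and 199, and inflammatory monocytes only 73.4 and 22.4. Itgal, the alpha subunit of LFA-1, stood at 357 and 456 CPM in neutrophils, 316 and 331 in eosinophils and 212 and 378 in inflammatory monocytes. NK cells held 664 and 489.6 CPM of Itgal, and cDC2 only 30.5 and 41.1.

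The gut homing subunits had other patterns. Itgb7 was highest in cDC1 (279 CPM in WT and 305 in KO), with cDC2 at 204 and 236 and T cells at 278 and 132, so that cDC1 and T cells were not apart in WT. Resident macrophages held 23.2 and 47.0 CPM of Itgb7. Its partner Itga4 was widespread over the leukocytes. Among the same 9 classes it was highest in eosinophils, at 605 CPM in WT and 768 in KO, and lowest in resident macrophages in WT (163.5 CPM) and in B cells (223 CPM) and resident macrophages (225 CPM) in KO. Stromal cells gave 32.2 and 37.6 CPM, WT epithelial cells 5.68 CPM, and mature DC gave 869 CPM in 19 WT cells and 1295 CPM in 40 KO cells. Itgae was confined to fewer classes. Of all named classes with at least 30 cells in both libraries, T cells (583 and 22.8 CPM), cDC2 (173 and 75.3) and cDC1 (133 and 86.9) had the highest levels, and inflammatory monocytes had 1 WT and 3 KO UMIs.

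Itgav and Itgb5, which pair as a receptor for vitronectin, were both highest in resident macrophages among the 9 classes that had 30 cells or more in both. Itgav gave 101 CPM in WT and 154 in KO resident macrophages, and Itgb5 gave 199 and 113. The unnamed cluster 15, with 72 WT and 47 KO cells, held more Itgav than resident macrophages, at 173 and 224 CPM. Intermediate cells gave 102 CPM of Itgb5 in WT and 50.8 in KO, and inflammatory monocytes 30.6 and 40.1. Stromal cells, with 80 WT and 21 KO cells, gave 159 and 127 CPM. cDC1 and cDC2 gave at most 4.36 CPM of Itgb5 in either library, and NK cells gave no UMI, which allows up to 19.9 CPM in WT and 16.3 in KO. Itgb1 was spread over most classes, at 186 and 193 CPM in cDC1 and 179 and 221 in resident macrophages, with the highest level in stromal cells (584 and 701) and low levels in B cells (54.0 and 43.1) and T cells (54.3 and 60.8).

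**Figure D3:**
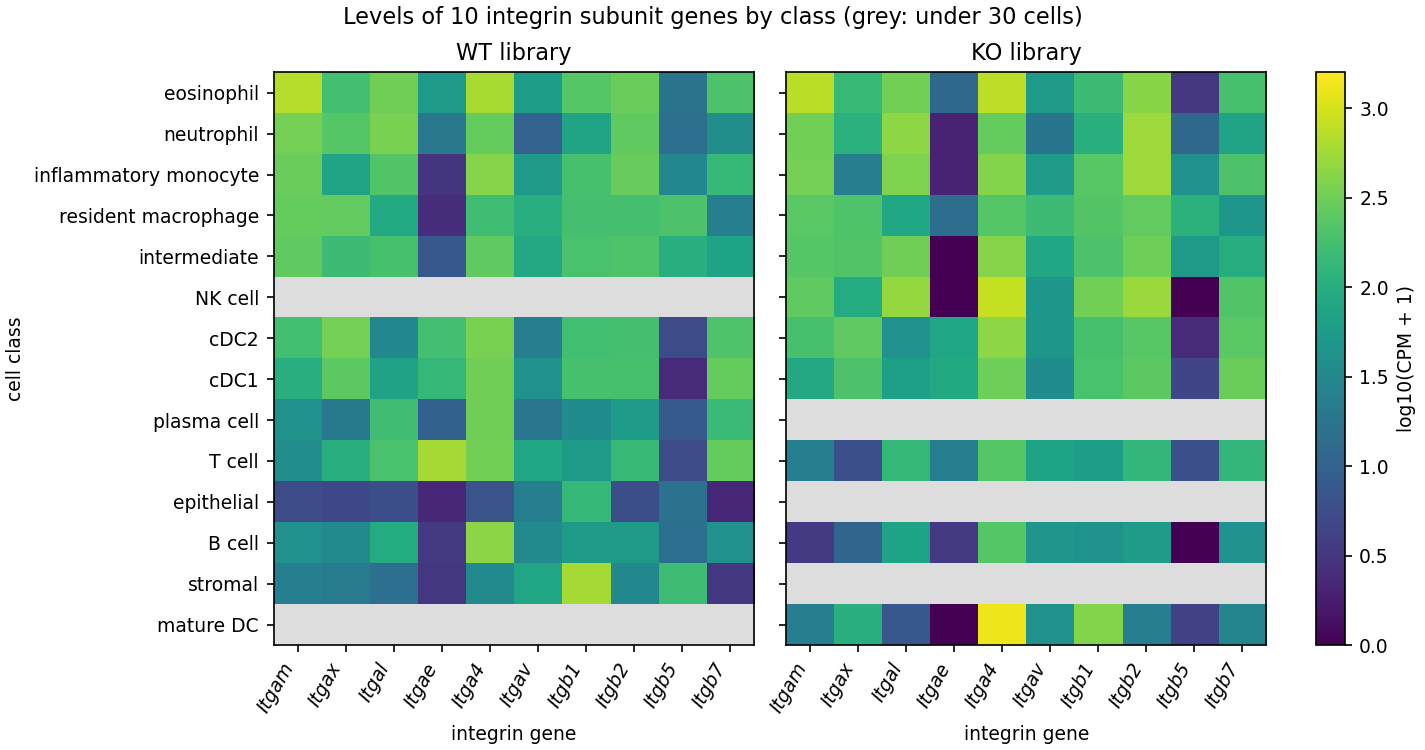
Level of each of the 10 integrin genes (columns) in each class (rows) as log10(CPM + 1), for the WT library on the left and the KO library on the right; grey marks a class with under 30 cells in that library. Itgb5 is high in resident macrophages (199 and 113 CPM) and low in dendritic cells, and Itgae in T cells stands at 583 CPM in WT and 22.8 in KO.

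Both subunits of a pair were then sought in the same cells, thinned to 2000 UMIs. Itgam and Itgb2 were both seen in 6.97% of WT and 14.7% of KO cells. Itgb2 was seen in 31.8% of WT cells with Itgam and 21.2% of those without, and in 48.7% and 36.5% of the KO cells. These shares are over all cells, so they mix classes that differ in the levels of both genes. In WT inflammatory monocytes the order was the other way, 28.1% with and 39.5% without Itgam, and likewise in WT resident macrophages (15.8% and 26.4%), while KO resident macrophages gave 36.8% and 29.8%. Thinned to 1000 UMIs, both WT orders were lost, with 22.7% and 22.8% in inflammatory monocytes and 24.4% and 6.45% in resident macrophages, so no order is read from these classes. Itgae and Itgb7 met in 25.7% of WT T cells, where Itgb7 was seen in 45.3% of cells with Itgae and 29.2% of those without. In KO cDC2 the 2 shares were 28.3% and 38.4%, and at 1000 UMIs they were reversed, at 40.9% and 20.8%. At this depth a subunit without a UMI is not shown to be absent.

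The second question was whether the integrins of a cell class differed between the WT and KO libraries. A gene was compared where the class had at least 50 cells in each library and the gene at least 50 UMIs over both, and it was called at 2-fold or more. Of 80 combinations of gene and class, 62 had enough UMIs, 2 were called higher in KO and 6 lower. Relative to the median ratio of all genes in each class, the split was 5 higher and 4 lower. No member was called in 4 of the 8 classes. These were resident macrophages, with 9 compared and a background of 3.86% of all genes called higher, 7.48% lower and 11.3% in either direction, and cDC1, with 9 compared and a background of 2% higher, 1.55% lower and 3.56% in either. They also were eosinophils, with 7 compared and a background of 5.38% higher, 3.25% lower and 8.63% in either, and B cells, with 4 compared and a background of 0.826% higher, 6.7% lower and 7.52% in either. In T cells 3 of 8 members were lower and none higher, against 17.3% of all genes lower, 3.32% higher and 20.6% in either. The T cell class is cluster 8 alone. Cluster 15, with 72 WT and 47 KO cells, also had Cd3e, Trac and Lck raised but stayed unnamed because its top genes held more markers of innate lymphoid cells, and it is not in these counts. In cDC2 1 of 9 was higher and 1 lower, against 2.62% of all genes higher, 5.59% lower and 8.21% in either. In inflammatory monocytes 1 of 9 was lower and none higher, against 5.79% lower, 3.28% higher and 9.07% in either. In neutrophils 1 of 7 was higher and 1 lower, against 5.07% higher, 6.72% lower and 11.8% in either. With resident, intermediate and monocyte cells joined, none of 10 was called, against 2.23% higher, 3.79% lower and 6.02% in either. Over all cells 1 of 10 was higher and none lower, against 2.94% higher, 13.4% lower and 16.3% in either. The remaining combinations held under 50 UMIs each and give no comparison. Outside T cells these counts rest on 1 gene in each direction and class.

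Itgam was not called in any class. Its log2 KO to WT ratio lay between -0.24 in cDC1 (-0.52 to 0.05) and 0.21 in inflammatory monocytes (-0.04 to 0.48) over the 6 classes compared. In resident macrophages it was -0.23 (-0.42 to -0.03), in cDC2 0.12 (-0.04 to 0.28), in eosinophils 0.10 (-0.19 to 0.41) and in neutrophils -0.04 (-0.41 to 0.35). The resident macrophage class was made of cluster 5, with 165 WT and 123 KO cells, and cluster 10, with 20 and 154 cells and with Ccr2 and F10 raised beside C1q genes and Mrc1. Inside each of them Itgam was lower in KO by more than in the class as a whole, with 261 CPM in WT and 165 in KO in cluster 5 (-0.66, -0.95 to -0.38) and 420.5 and 282 CPM in cluster 10 (-0.57, -0.96 to -0.17). In the monocytes, cluster 4 gave 0.06 (-0.23 to 0.35), while cluster 20, with 17 WT and 38 KO cells, gave 234 CPM in WT and 492 in KO, a ratio of 1.07 (0.47 to 1.72) past 2-fold. In cDC2, cluster 1 gave 169 and 150 CPM, a ratio of -0.17 on the other side of 0 from the class. Other class definitions gave -0.70 in resident macrophages with every barcode and 0.69 in cDC2 with each library clustered alone. Over all cells the ratio was 0.54 (0.47 to 0.61), above the value in each of the 6 classes as first defined, and the make-up of the libraries differed, with 28.8% of WT and 6.76% of KO cells in the B, plasma, T and epithelial classes.

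Itgax was also higher in KO over all cells, with 130.5 CPM in WT and 175 in KO and a log2 ratio of 0.42 (0.35 to 0.50), but in all 7 classes compared the ratio was below 0. Intermediate cells, too few in KO to be compared, went the other way, with 153 CPM in WT and 212 in KO. The ratio was -0.37 in resident macrophages, -0.32 in cDC1, -0.39 in cDC2 and -0.28 (-0.91 to 0.36) in eosinophils, and only the last interval reached 0. It passed 2-fold in inflammatory monocytes (-1.67, from 36 WT and 62 KO UMIs), neutrophils (-1.08, from 50 and 106 UMIs) and T cells (-4.12, -7.43 to -2.48, from 117 and 2 UMIs). The neutrophil value passed 2-fold in 5 of 12 other settings. The T cell value was -1.17 when classes came from the highest marker score per cell. cDC2, the class with the highest level, made up 9.24% of WT and 19.8% of KO cells. Inside the resident clusters the directions were opposed, with -0.51 (-0.77 to -0.26) in cluster 5 and 2.54 (1.34 to 4.21) in cluster 10, the latter from 5 WT and 358 KO UMIs. With resident macrophages from a coarser clustering the ratio was 0.16, and with eosinophils from a marker score per cell or from every barcode it was 0.63 and 0.04.

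Itgb2 was higher in KO over all cells, with a log2 ratio of 1.12 (1.06 to 1.20). In 6 myeloid classes its interval lay above 0, from 0.37 in cDC2 (0.23 to 0.53) and 0.39 in cDC1 to 0.93 in inflammatory monocytes (0.68 to 1.19) and 1.06 in neutrophils (0.66 to 1.48). The neutrophil ratio passed 2-fold in 5 of 12 other settings (0.82 to 1.13). In B cells the ratio was 0.02 (-0.79 to 0.79) and in T cells -0.19 (-0.67 to 0.27). The median of all genes lay below 0 in most classes, at -0.24 over all cells and -0.12 in inflammatory monocytes, and relative to these medians Itgb2 was above 0 in all 8 classes. In resident macrophages the ratio of 0.58 (0.37 to 0.81) was not seen inside the clusters of the class, where cluster 5 gave 159 CPM in WT and 155 in KO and cluster 10 gave 331 and 335. With 4000 variable genes the ratio of this class was -0.14, and with every barcode -0.05. In cDC1, Itgb2 was at 0.59 (0.32 to 0.86) in cluster 7 and at 0.09 (-0.20 to 0.39) in cluster 12.

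**Figure D4:**
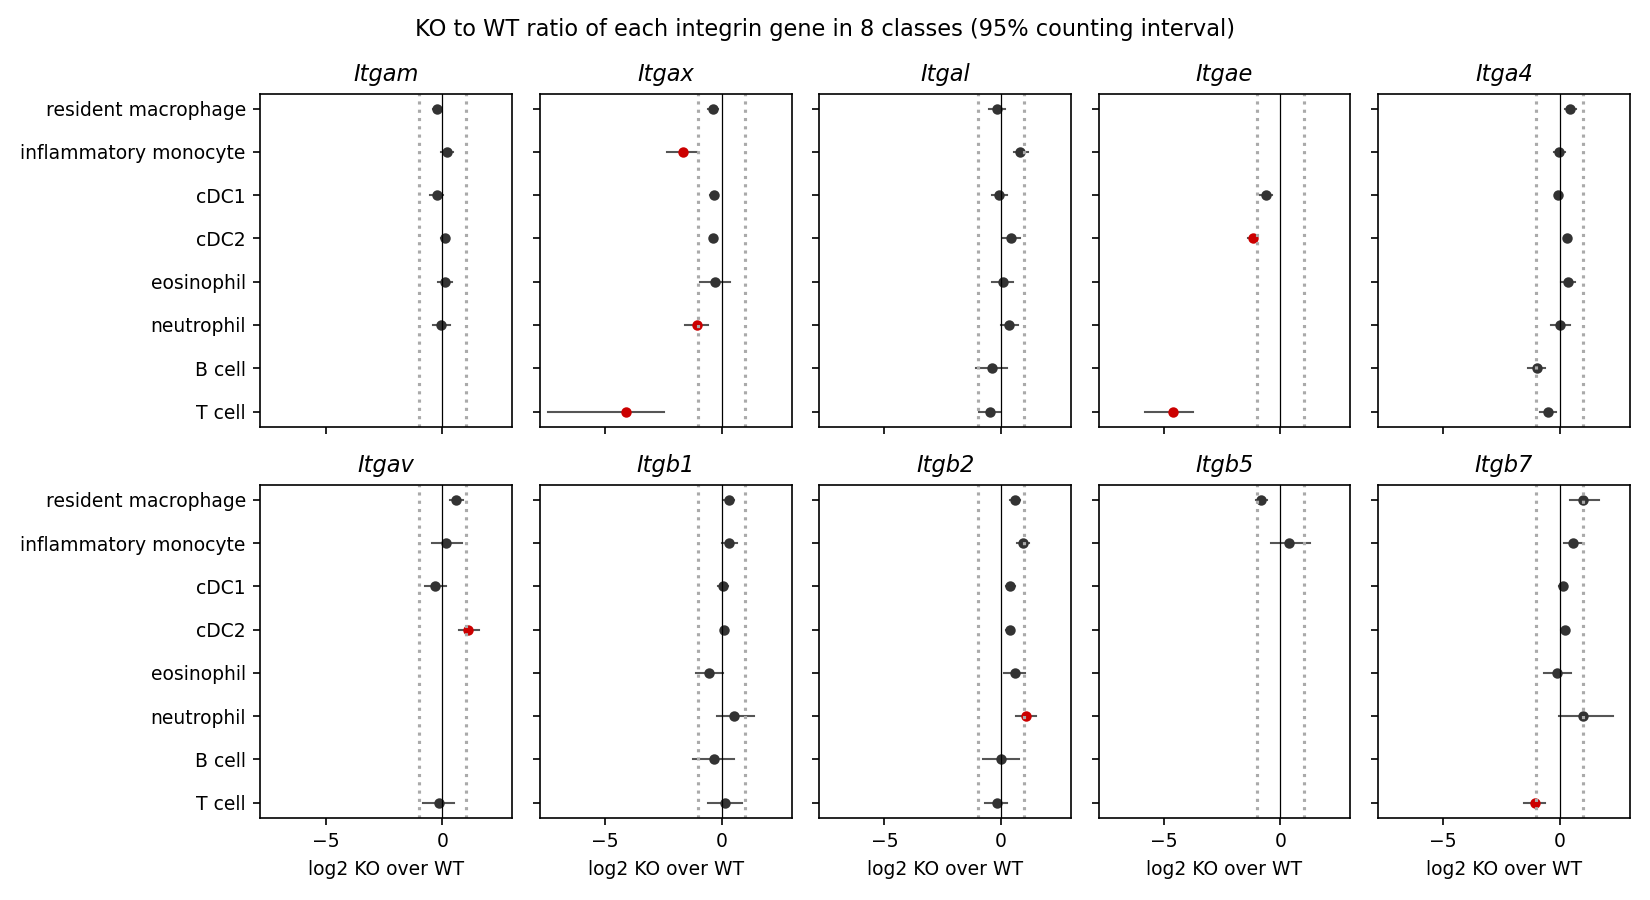
Log2 KO to WT ratio (horizontal axis) of each integrin gene in the classes with at least 50 UMIs of the gene; points are ratios, lines are exact 95% counting intervals, dotted lines mark 2-fold, and red points are past it. Itgam stays between -0.24 and 0.21, Itgax lies below 0 in all 7 classes, and Itgae and Itgax in T cells are at -4.62 and -4.12.

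Itgae was lower in KO in each of the 3 classes in which it could be compared. Resident macrophages, with too few UMIs to be compared, went the other way, with 2 WT and 37 KO UMIs (1.66 and 13.5 CPM). In T cells 654 WT UMIs stood against 9 in KO, in 170 and 63 cells, and the log2 ratio was -4.62 (-5.81 to -3.74). In cDC2 it stood at 173 CPM in the WT library (157 to 190) and 75.3 CPM in the KO library (69.2 to 81.7), so the ratio was -1.19 (-1.38 to -1.02). In cDC1 the ratio was -0.61 (-0.87 to -0.36), with -0.67 (-0.98 to -0.36) in its cluster 7 and -0.34 (-0.80 to 0.13) in its cluster 12. The cDC2 class was made of cluster 1, led by Plet1 and Cd209a, with 238 WT and 377 KO cells, and cluster 13, with raised Mgl2, with 2 WT and 122 KO cells. Inside cluster 1 the levels were 174.7 CPM (WT) and 93.7 CPM (KO), a ratio of -0.89 (-1.08 to -0.71) that no longer reached 2-fold. Cluster 13 held 19.3 CPM in KO.

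Itgav in cDC2 was at 22.2 CPM in the WT library (56 UMIs) and 48.3 CPM in the KO library (362 UMIs), a log2 ratio of 1.09 (0.71 to 1.56). Inside cluster 1 the ratio was 0.84 (0.44 to 1.32), under 2-fold, and cluster 13 of KO held 70.4 CPM. The lower Itgax of inflammatory monocytes rested on cluster 20. There 17 WT cells gave 28 of the 36 WT UMIs, and the levels were 234 CPM in WT and 60.1 in KO. In cluster 4, with 62 WT and 287 KO cells, Itgax was at 21.5 and 18.7 CPM, a ratio of -0.20 (-1.30 to 1.09).

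**Figure D5:**
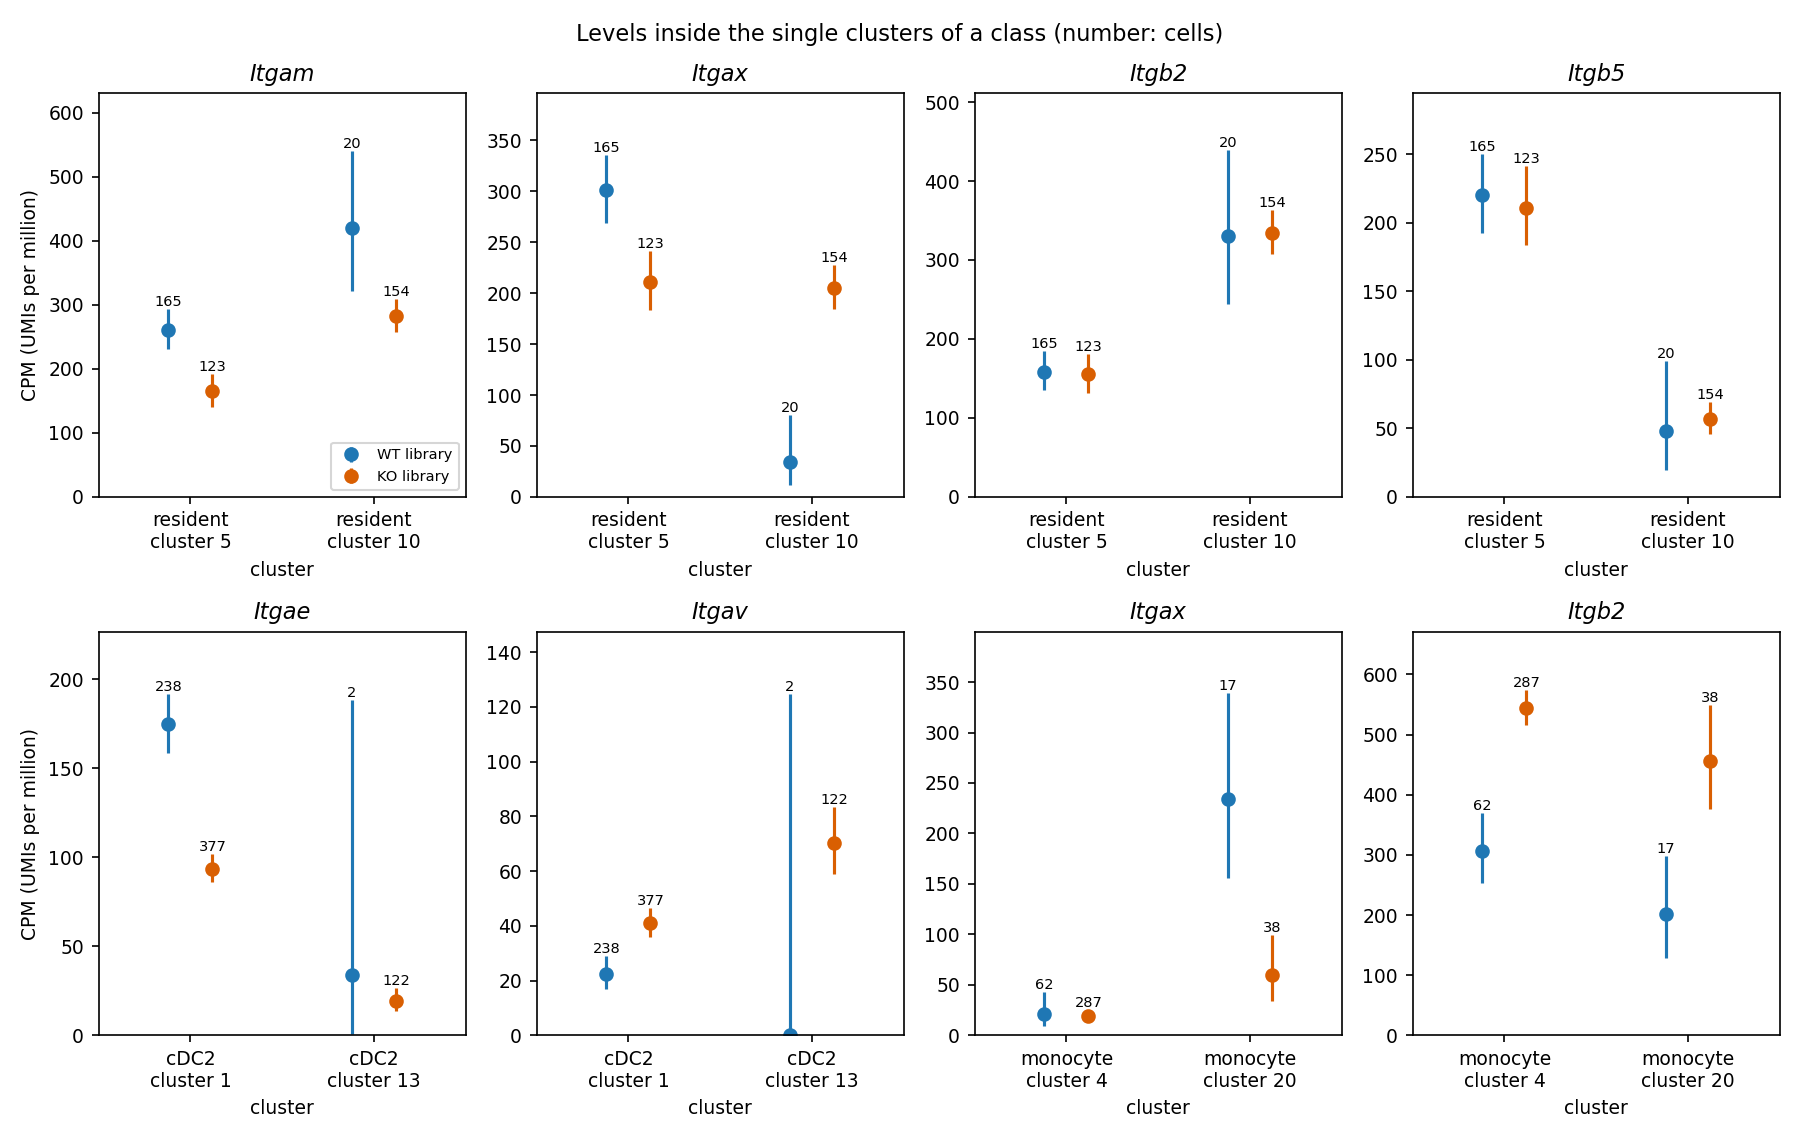
Levels (vertical axis, CPM, from 0) inside single clusters, for the WT library (blue) and the KO library (orange), with exact 95% counting intervals and the number of cells above each; the upper row gives Itgam, Itgax, Itgb2 and Itgb5 in resident macrophage clusters 5 and 10, and the lower row Itgae and Itgav in cDC2 clusters and Itgax and Itgb2 in monocyte clusters. Itgb2 lies at 159 and 155 CPM in cluster 5 and at 331 and 335 in cluster 10, while Itgam is lower in KO in both.

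Several other genes of the T cell class, some of which took part in its clustering, also differed, in both directions. Cd8a, the coreceptor of cytotoxic T cells, gave 339 CPM in WT and 53.2 in KO, and Trdc, the constant region of the delta receptor chain, gave 236 and 30.4. Gzma, a granule protease, had 14848 WT UMIs and 0 in KO, a count that allows up to 7.59 CPM. Cd4 gave 8.02 CPM in WT and 38.0 in KO. Cd8b1, the partner chain of Cd8a, was at 65.9 and 48.1 CPM and in 17.1% and 17.5% of cells, and Cd5 was at 22.3 and 30.4 CPM, with overlapping intervals for both genes. Itgb7 was lower in KO (278 and 132 CPM, log2 ratio -1.07, -1.53 to -0.65), as was Itga1, another alpha subunit (371 and 55.7 CPM, -2.72). The Itgb7 ratio passed 2-fold in 6 of 12 other settings and was -0.35 with classes from the highest marker score per cell. The 8 epithelial markers summed to 133 CPM in the WT T cells and 38.0 in KO, with 7 and 3 of the markers detected. In cDC2 they summed to 120.4 and 64.5 CPM and in cDC1 to 70.4 and 30.9. In the unnamed cluster 15 Itgae was also lower in KO, from 32 WT and 12 KO UMIs (92.1 and 34.9 CPM, -1.37, -2.49 to -0.40). Itgb7 and Itgax did not repeat the T cell values there, with -0.15 (-0.54 to 0.24) for Itgb7 and 0.49 (-0.77 to 1.83) for Itgax, and Itga4 was at 0.62 (0.17 to 1.08) against -0.51 in the T cell class. The part of T cell make-up and of epithelial RNA in the values of Itgae was not tested.

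Among the subunits not called, Itgb5 in resident macrophages had a log2 ratio of -0.81 (-1.07 to -0.57) and Itgb7 one of 0.99 (0.42 to 1.66). Inside cluster 5 the values were near 0, at -0.06 (-0.33 to 0.22) and 0.08 (-0.79 to 0.96). Inside cluster 10 Itgb5 was at 0.23 (-0.86 to 1.59), and Itgb7 at 1.10 (-0.27 to 3.03) from 4 WT and 105 KO UMIs, with 27.6 and 60.3 CPM. With 4000 variable genes the class values were 0.03 and 0.06, and with every barcode -0.03 and -0.07. Itgav in cluster 5 was at 0.94 (0.61 to 1.30), above its class value of 0.60. Itgal in inflammatory monocytes was at 0.83 (0.54 to 1.14), with 0.78 in cluster 4 and -0.88 (-1.95 to 0.17) in cluster 20. Itga4 in B cells was at -0.99 (-1.35 to -0.65), with 444 CPM in WT and 223 in KO. Itgb1 ranged over the 8 classes from -0.53 in eosinophils (-1.10 to 0.06) to 0.54 in neutrophils (-0.22 to 1.41), and both intervals covered 0.

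Genes that work with integrins were read from 3 lists of 17 other subunits, 22 activation and adaptor genes and 13 ligands. Of the activation and adaptor genes, none of the 21 compared in resident macrophages was called, against 11.3% of all genes in either direction, and their median log2 ratio was -0.31 against -0.19 for all genes. None of 22 was called in cDC1, against 3.56%, and none of 19 in neutrophils, against 11.8%. The called genes were 1 of 22 in cDC2 (8.21% of all genes), 1 of 21 in inflammatory monocytes (9.07%), 1 of 17 in eosinophils (8.63%), 1 of 14 in B cells (7.52%) and 2 of 15 in T cells (20.6%). They were Fgr, a Src family kinase, in cDC2 (-1.06), Rasgrp2, which switches on Rap1, in inflammatory monocytes (1.20, and 0.92 inside cluster 4), Cyth1 in eosinophils (1.01), Zyx in B cells (-1.13), and Ilk and Lims1, partners in 1 adaptor complex, in T cells (-1.39 and -1.73). Of the other subunits, at most 3 could be compared in any of the 8 classes, and Itga1 in T cells was the one called.

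Most of the called list genes were ligands. In resident macrophages 1 of 8 was higher and 1 lower, against 11.3% of all genes in either direction. In cDC1 2 of 8 were called (3.56%), in cDC2 3 of 9 (8.21%), in inflammatory monocytes 2 of 7 (9.07%) and in neutrophils 2 of 6 (11.8%). Eosinophils, B cells and T cells had 1 of 3 called each, against 8.63%, 7.52% and 20.6%. In resident macrophages Fn1, fibronectin, gave 167 CPM in WT and 920.3 in KO (log2 ratio 2.46, 2.26 to 2.68), and Vcam1, a ligand of Itga4 with Itgb1, gave 316 and 79.1 CPM (-1.99, -2.25 to -1.75). Fn1 is among the 10 leading genes of cluster 10, which held more KO cells, and Vcam1 among those of cluster 5, which held more WT cells, and neither difference reached 2-fold inside these clusters. Fn1 gave 1227 CPM in WT and 1439 in KO in cluster 10 (0.23, 0.01 to 0.46) and 21.7 and 16.0 CPM in cluster 5. Vcam1 gave 358 and 188 CPM in cluster 5 (-0.92, -1.19 to -0.67) and 13.8 and 16.6 CPM in cluster 10. In inflammatory monocytes Spp1, osteopontin, was higher (20.4 and 119 CPM, 2.49) and F11r lower (-1.42). Of the 329 KO UMIs of Spp1, 218 came from the 38 KO cells of cluster 20 (41.8 CPM in WT and 873 in KO, 4.35), and in cluster 4 the levels were 13.5 and 44.1 CPM (1.64, 0.44 to 3.36). Thbs1 was higher in eosinophils (1.07) and lower in cDC2 (-1.09, and -1.42 inside cluster 1) and B cells (-4.04, from 79 and 2 UMIs). Icam1, the ligand of LFA-1 and Mac-1, gave 1786 CPM in WT and 804 in KO neutrophils (-1.15), while Fn1 in these cells rested on 1 WT and 56 KO UMIs (3.38, 1.10 to 8.97). Cdh1, the E-cadherin that Itgae with Itgb7 binds, was lower in cDC1 (-1.61), cDC2 (-1.10, and -0.98 inside cluster 1) and T cells (-1.78), which hold Itgae. It was also lower in the joined resident, intermediate and monocyte cells (-1.13, from 45 WT and 20 KO UMIs). Those cells held little Itgae (4.88 and 6.96 CPM). Over all cells the Cdh1 ratio was -2.49. In cDC1, cDC2 and T cells the summed epithelial markers were also lower in KO, and the sum was not made for the other leukocyte classes. The part of epithelial RNA in these values was not tested. F11r in cDC2 (-1.02) and Fn1 in cDC1 (-1.06) were also lower.

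For each gene, the 3 genes most like it were found by Pearson correlation of log2(CPM + 10) over 23 points from 14 classes in 2 libraries, among 6907 genes. The points share library and depth, so the values are a description. Itgam was nearest to Fcgr3, an Fc receptor (r = 0.91), Stk40 (0.91) and Ptpre (0.90), and its r with Itgb2 was 0.86, with Itgal 0.67 and with Itgax 0.67. Itgb2 was nearest to Fxyd5 (0.93), Myo1f (0.92) and Tln1, talin (0.89). Itgb5 was nearest to Mmp14 (0.94), Selenop (0.92) and Ctsl (0.92). Itgal was nearest to Ptk2b (0.86), Itga4 to Dock2 (0.86), Itgb1 to Bmpr2 (0.85), Itgae to Srgap3 (0.84), Itgax to M6pr (0.83), Itgb7 to Spn (0.79) and Itgav to P2rx7 (0.73). Among the members, Itgae was nearest to Itgb7 (0.59) and Itgb7 to Itgb2 (0.67).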

How the data were processed

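Single-cell RNA-seq of 1 WT and 1 KO library was analysed. The authors deposited raw UMI counts per gene and barcode. Per the file headers they came from Cell Ranger 3.0.2, and the submitters' processing notes name mm10 and Seurat 4. Counts were loaded as deposited. Barcodes with 200 to 6000 genes and at most 15% mitochondrial UMIs were kept, removing 18.5% of WT and 16.8% of KO barcodes. The cell counts that the study states for WT and KO are above the 3185 and 3020 barcodes analysed here, by far so for WT. Cells were normalised to 10000 counts, and 2000 variable genes without the integrins and their lists, 30 components, 15 neighbours and Leiden resolution 1.0 were used (scanpy 1.11.5, leidenalg 0.10.2, Python 3.11.15). A marker was raised at 2-fold over other cells (prior 10 CPM) and in 10% of the cluster. At least 3 raised markers gave a name. The study's DESC clustering was not used. The intermediate rule was set after the first clustering was seen.

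Ratios used a prior of 1 CPM. Alternatives were no cell filter, a stricter one (500 genes, 10% mitochondrial), removal of the top 3% of Scrublet scores, other clusterings, class by marker score, other CPM totals, medians, gene minimums and priors. Scrublet marked 1 WT and 9 KO cells and has not worked, so no doublets were removed. Calculations were tested on simulated data. Coordinates are from GENCODE M21, in which 30934 of 31053 features were found. Named genes were the 10 members, list genes past 2-fold with at least 50 UMIs, and the 3 genes most like each member. Genes of the T cell make-up, epithelial sums and cluster values were chosen after values were seen. The members and lists were chosen with earlier results of these data known.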

Additional observations from a re-analysis of the deposited data

How the results depend on the processing

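No paired analysis was possible because each genotype has 1 library, and for the same reason no replicate could be left out. No called ratio of a member changed its sign under any setting. Of 773 values of member ratios under other settings, 670 stayed inside the main counting interval and 103 moved. For Itgam, 40.0% of WT and 57.8% of KO cells had a UMI, against 33.4% and 50.9% of every deposited barcode and 43.1% and 61.5% of cells under the stricter filter. Thinning to 1000 UMIs gave 14.7% and 20.3% of cells, and Itgam with Itgb2 in 2.61% of WT and 6.44% of KO cells. The WT eosinophil level of Itgam was 565 CPM when classes came from the highest marker score per cell, and the KO level 835 CPM without mitochondrial, ribosomal, haemoglobin and immunoglobulin UMIs. Combinations higher in KO by 2-fold numbered 2, against 1 with every deposited barcode or a prior of 10 CPM, 4 with 4000 variable genes, and 5 with each library clustered alone or relative to the median of all genes. Those lower numbered 6 and stayed between 4 and 9. List genes lower in KO numbered 15, against 27 with a gene minimum of 20 UMIs. Of the called ratios, Itgb7 in T cells passed 2-fold in 6 of 12 settings, Itgb2 and Itgax in neutrophils in 5 of 12, Itgav in cDC2 in 8 of 13, Itgae in cDC2 in 11 of 13 (-3.21 to -0.89) and Itgax in inflammatory monocytes in 11 of 14, while Itgae in T cells (-4.62 to -3.83) and Itgax in T cells (-4.12 to -1.17) passed in 12 of 12. With each library clustered alone no WT eosinophil class formed, and neutrophils were then the highest class for Itgam. Itga4 was then highest in cDC2, and with classes from the highest marker score per cell it was highest in mature DC. Classes with under 30 cells in either library were left out of each ranking. Mature DC had 19 WT and 40 KO cells in the main setting, and 95 and 154 by marker score. Itgb7 was highest in cDC2 at Leiden resolution 0.5, where cDC1, with 27 WT cells, was left out. Beyond this rule the cause of these shifts was not tested. Counting depth limits Itgae, Itgav and Itgb5 most, which could be compared in 3, 5 and 2 of 8 classes. The single-cluster values were chosen after seeing the data.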

Other observations

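Mature DC and NK cells had too few cells for the comparison of genotypes and are given as values. Itga4 was seen in 89.5% of 19 WT and 97.5% of 40 KO mature DC. Itgb1 in these cells was at 419 and 398 CPM, and Itgb2 at 12.5 and 22.4 CPM. NK cells gave 219 CPM of Itgb2 in 26 WT cells and 528 CPM in 41 KO cells, and 511 and 832 CPM of Itga4. Of the unnamed clusters, cluster 15 (72 WT and 47 KO cells), with markers of T cells and innate lymphoid cells raised, held Itgb7 at 345 and 311 CPM and Itgal at 452 and 186 CPM. Cluster 14 (72 and 48 cells) held 95.6 and 122 CPM of Itgb7 and 80.9 and 168 CPM of Itgal, and cluster 17 (54 and 23 cells) gave 2 WT and 5 KO UMIs of Itgb7 and 0 and 2 of Itgal. Plasma cells, 235 in WT and 5 in KO, gave 165 CPM of Itgal, 324 CPM of Itga4 and 152 CPM of Itgb7 in WT.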
